A study of Mus musculus with 3008 samples.

Results

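The genes described here encode the nuclear part of oxidative phosphorylation, the respiratory chain and ATP synthase of the inner mitochondrial membrane. They were taken by name, as every row of the count table that begins with Ndufa, Ndufb, Ndufc, Ndufs, Ndufv, Uqcr, Cox4 to Cox8 or Atp5, or is one of Sdha, Sdhb, Sdhc and Sdhd, with at least 30 unique molecular identifiers (UMIs, counted RNA molecules) over all cells. Of 92 such rows among 23725 genes, 82 reached the minimum: 43 genes of complex I, 4 of complex II, 8 of complex III, 11 of complex IV and 16 of complex V. By their names, Ndufa4, known as a subunit of complex IV, was counted with complex I. Atp5sl, known as an assembly factor of complex I, was counted with complex V. The cells were Foxp3+ regulatory T cells (Tregs), CD4+ T cells that restrain immune responses. The 3008 cells came from the lamina propria of the colon, which underlies the gut epithelium, in 2 libraries that hold 20.6% (colon 1) and 58.9% (colon 2) of them, and from the spleen in a single library with the other 20.5%. All 3 libraries came from male B6 mice aged 7 months with the Foxp3-Ires-Gfp reporter, which marks Foxp3+ cells by GFP, and all cells were sorted as DAPI- TCRb+ CD4+ GFP+. No animal is named in the labels, so each library is 1 sample, no test between tissues is possible, and whether the colon libraries come from different mice is not known (the title of colon 2 calls it a second replicate, its sample type rep1b). Colon was digested with enzymes and spleen was dissociated mechanically, so tissue and dissociation cannot be told apart.

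As background, complexes I and II pass electrons from NADH and succinate to ubiquinone, complex III passes them to cytochrome c and complex IV to oxygen. Complexes I, III and IV pump protons out of the matrix, and complex V, the ATP synthase, uses their return to make ATP. Most subunits are encoded in the nucleus and imported, and a few core subunits are encoded by mitochondrial DNA, and those are not analysed here. Tregs are known to rely more on oxidative metabolism than activated conventional T cells do.

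The libraries held 1253246 UMIs in colon 1, 3916649 in colon 2 and 1255946 in spleen, with a median of 1767, 2026.5 and 1847 UMIs per cell. Levels are given relative to all UMIs of the library (counts per 1000000, CPM), and ratios as log2 of colon over spleen with a 95% exact interval in brackets that covers counting error only. Both colon ratios share the spleen library. Foxp3 stood at 452.4 CPM in colon 1, 306.1 CPM in colon 2 and 281.9 CPM in spleen, and none of the 9 listed Treg genes in the table was at 0 in any library. The summed lists of B cells, plasma cells, granulocytes or mast cells, epithelium, stroma and erythroid cells stayed between 1.02 and 106.98 CPM in every library. Macrophage or dendritic cell genes summed to 292.04 CPM in colon 1, 278.8 CPM in colon 2 and 175.96 CPM in spleen, and CD8 or NK cell genes to 155.6, 116.9 and 195.9 CPM in that order. Of the 11 macrophage or dendritic cell genes, 3 were at 0 in colon 1, 2 in colon 2 and 6 in spleen, with Csf1r at 0 in all of them. Lyz2, C1qa, C1qc and Apoe were at 0 in spleen alone, and Adgre1 was at 0 in both colon libraries but not in spleen. The part of these other cells in the results below was not tested beyond leaving out cells that hold their genes. Libraries shared 9 cell barcodes between colon 1 and colon 2, 5 between colon 1 and spleen and 11 between colon 2 and spleen.

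Taken as a whole, the oxidative phosphorylation genes stood at nearly the same level in colon and spleen Tregs. The 82 genes summed to 18203 CPM in colon 1, 16259 CPM in colon 2 and 16779 CPM in spleen, or 1.82%, 1.63% and 1.68% of all UMIs. Colon 1 lay a little above spleen, at log2 0.12 (0.09 to 0.14), and colon 2 a little below, at -0.05 (-0.07 to -0.02). The colon libraries thus lay on either side of spleen and differed from each other by more than either differed from spleen, with colon 2 over colon 1 at -0.16 (-0.18 to -0.14). These small differences depend on what the CPM is scaled to. Totals without the ribosomal protein genes, whose transcripts took 17.19% of colon 1, 15.97% of colon 2 and 27.71% of spleen UMIs, lowered every ratio by 0.20 in colon 1 and 0.22 in colon 2. The sum then stood at -0.08 and -0.26, and the median of all tested genes at -0.19 and -0.21. Relative to that median the sum lies at 0.11 in colon 1 and -0.06 in colon 2 with either total, because new totals shift every ratio of a library alike.

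Few single genes stood apart. Past 1.5-fold in both colon libraries, only Ndufs5 was higher than in spleen, and Cox7a2l, Ndufa6 and Ndufaf1 were lower. Among all 9580 genes with at least 30 UMIs, 17.3% were that much higher in both and 13.3% that much lower, so 1 and 3 of 82 are small shares beside the background. At 2-fold the counts were 0 and 0, beside 10.4% and 5.40%. Low counts widen ratios, and most oxidative phosphorylation genes are well counted, with 53 to 5620 UMIs over the libraries. At the depth that 61 of the 82 reach, 0 of those 61 were higher and 2 lower, beside 23.1% higher and 7.15% lower among all 2155 genes of that depth. The median ratio of the 82 genes was 0.13 in colon 1 and -0.02 in colon 2, beside 0.0031 and 0.011 for all tested genes, and their spread was narrower, with an SD over genes of 0.39 and 0.34 against 1.10 and 1.08. The interval of counting error lay above 0 for 21 of the 82 genes in colon 1 (25.6%, beside 19.3% of all tested genes) and 12 in colon 2 (14.6%, beside 24.7%). It lay below 0 for 8 genes in colon 1 (9.76%, beside 18.1%) and 19 in colon 2 (23.2%, beside 22.5%). Neither these shares nor the SDs were matched for depth. The 82 genes hold more UMIs than most tested genes, which narrows both intervals and the spread of ratios.

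**Figure D1:**
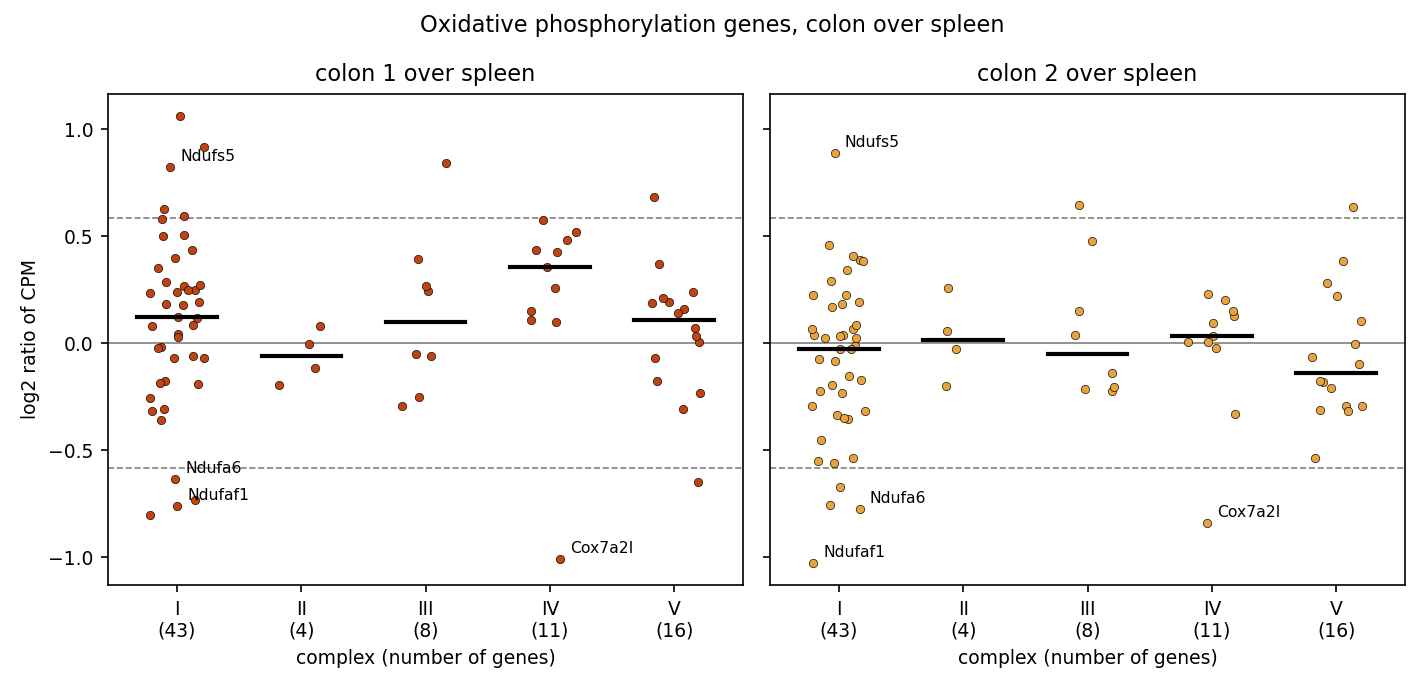
Each point is 1 of the 82 genes, with its log2 ratio of CPM in colon 1 over spleen (left) and colon 2 over spleen (right), by complex; black bars are medians and dashed lines mark 1.5-fold. Most genes lie within 1.5-fold of spleen, and the 4 named genes lie beyond it in both panels.

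By complex, and with totals of all UMIs, the summed levels differed from spleen by at most 1.15-fold. Complex IV showed the widest difference in colon 1, with 5713 CPM in colon 1, 4892 CPM in colon 2 and 4983 CPM in spleen, at log2 0.20 (0.15 to 0.25) and -0.03 (-0.07 to 0.02). Complex I stood at 4934 CPM in colon 1, 4325 CPM in colon 2 and 4729.5 CPM in spleen, at 0.06 (0.01 to 0.11) and -0.13 (-0.17 to -0.09). Colon 1 was highest for both and colon 2 lowest. Complex V stood at 5571, 5104 and 5141 CPM in that order, at 0.12 (0.07 to 0.16) and -0.01 (-0.05 to 0.03). Complex II stood at 392.6, 418.98 and 401.3 CPM and complex III at 1593, 1519 and 1525 CPM, and their intervals included 0 in both comparisons. With totals that leave out ribosomal protein genes, complex I stood at -0.14 in colon 1 and -0.35 in colon 2, complex II at -0.23 and -0.15, complex III at -0.13 and -0.22, complex IV at 0.0014 and -0.24, and complex V at -0.08 and -0.23.

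**Figure D2:**
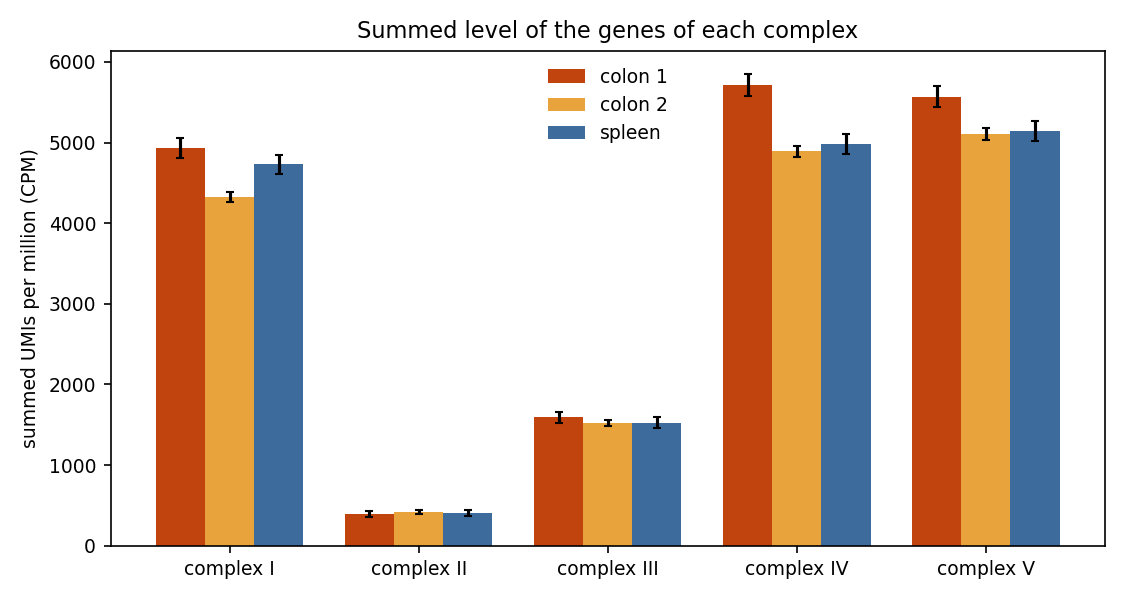
Bars are the summed CPM of the genes of each complex in colon 1, colon 2 and spleen, with 95% Poisson intervals of counting error. Colon 1 is highest for complexes I, III, IV and V, and colon 2 is lowest there. The interval of the colon 2 ratio to spleen leaves out 0 for complex I alone.

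In complex I, the 7 core subunits, which carry the flavin and the iron-sulfur clusters, summed to 428.5 CPM in colon 1, 467.2 CPM in colon 2 and 502.4 CPM in spleen, at -0.23 (-0.40 to -0.06) and -0.10 (-0.24 to 0.03). The 30 genes counted as accessory subunits, which surround that core, stood at 4367, 3759.8 and 4106 CPM, at 0.09 (0.03 to 0.14) and -0.13 (-0.17 to -0.08). Ndufa4 is among these 30 by its name alone. Among the core subunits Ndufs7, which binds the last iron-sulfur cluster before ubiquinone, differed most between the colon libraries, at 52.7 CPM in colon 1, 91.7 CPM in colon 2 and 87.6 CPM in spleen. Only colon 1 was low for this gene.

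The accessory subunit Ndufa6, a protein of the LYR family that holds the acyl carrier protein on the matrix arm, was lower in both colon libraries. It lies on chromosome 15, 82350140 to 82354322, minus strand (GRCm38). It stood at 242.6 CPM (216.1 to 271.4, Poisson interval) in colon 1, 220.6 CPM (206.1 to 235.8) in colon 2 and 377.4 CPM (344.2 to 412.96) in spleen, at -0.64 (-0.85 to -0.43) and -0.77 (-0.94 to -0.61). The Poisson interval of neither colon library overlapped that of spleen. Its ratio stayed between -0.83 and -0.60 in colon 1 and between -0.99 and -0.73 in colon 2 under 8 alternative scalings and cell filters. By cluster of cells, 5 of 6 colon 1 clusters and 5 of 6 colon 2 clusters had an interval below the spleen library, leaving aside the cluster that most spleen cells formed. The gene that carries its acyl carrier protein, Ndufab1, stood at 77.4 CPM in colon 1, 55.9 CPM in colon 2 and 81.2 CPM in spleen.

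The remaining named genes of complex I rest on fewer UMIs. Ndufs5, an accessory subunit facing the intermembrane space (chromosome 4, 123712710 to 123718202, minus strand), had 30 UMIs in colon 1, 98 in colon 2 and 17 in spleen, or 23.9, 25.02 and 13.5 CPM. The colon 1 ratio of 0.82 (-0.08 to 1.77) has an interval that includes 0, the colon 2 ratio of 0.89 (0.13 to 1.72) has one that does not, and 1 annotated pseudogene is nearly identical to its transcript end. Over 8 alternative settings its ratio ranged over 0.63 to 1.81 in colon 1 and over 0.64 to 2.19 in colon 2. Ndufaf1, a factor that assembles the membrane arm (chromosome 2, 119655446 to 119662827, minus strand), had 10, 26 and 17 UMIs in colon 1, colon 2 and spleen, or 7.98, 6.64 and 13.5 CPM. Its ratio was -0.76 (-2.05 to 0.45) and -1.03 (-1.96 to -0.05). Over the 8 settings the ratio of Ndufaf1 ranged over -3.31 to 0.44 in colon 1 and over -1.26 to -0.56 in colon 2, and the value of 0.44, on the other side of 0, came without cells that hold 2 UMIs of genes of dividing cells.

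Of the well counted accessory subunits, Ndufa2 stood at 456.4 CPM in colon 1, 366.6 CPM in colon 2 and 420.4 CPM in spleen. Ndufa3 stood at 293.6 CPM in colon 1, 237.4 CPM in colon 2 and 350.3 CPM in spleen, below spleen in both by log2 -0.25 (-0.46 to -0.05) and -0.56 (-0.73 to -0.39). Ndufb8, Ndufc2 and Ndufa11 were above spleen in both with intervals that leave out 0, at 0.50 and 0.41, at 0.50 and 0.38, and at 0.43 and 0.39. Accessory subunits of 1 complex thus stood on both sides of spleen. Ndufa4, named for complex I and known as a subunit of complex IV, stood at 229.01 CPM in colon 1, 195.8 CPM in colon 2 and 192.7 CPM in spleen.

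The 6 assembly factors of complex I with enough UMIs, which build the enzyme and are not part of it, summed to 138.04 CPM in colon 1, 97.5 CPM in colon 2 and 121.02 CPM in spleen. All 6 were lower in colon 2 than in colon 1. Ndufaf2, a relative of the subunit Ndufa12, had 19.95, 10.7 and 9.55 CPM in colon 1, colon 2 and spleen. Ndufaf3 had 25.5, 15.8 and 13.5 CPM in the same order, and Ndufaf5, a hydroxylase that acts on Ndufs7, had 19.2, 12.8 and 15.9 CPM. The accessory subunit Ndufa10 had 32.7, 20.9 and 28.7 CPM. Ndufaf2, Ndufaf3, Ndufaf5, Ndufa10 and Ndufs7 were the 5 genes at least 1.5-fold apart between the colon libraries, beside 27.3% of all tested genes. Each of the 5 is a complex I gene, as are 43 of the 82. All but Ndufs7 rest on few UMIs. Colon 1 and colon 2 held 25 and 42 for Ndufaf2 and 32 and 62 for Ndufaf3. They held 24 and 50 for Ndufaf5 and 41 and 82 for Ndufa10. The interval of colon 2 over colon 1 included 0 for Ndufaf5 (-1.31 to 0.18) and left out 0 for the others. The share of all tested genes was not matched for depth.

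Complex II, the succinate dehydrogenase shared with the citrate cycle, was even between the libraries. Sdha, the flavoprotein, stood at 124.5 CPM in colon 1, 140.7 CPM in colon 2 and 117.8 CPM in spleen, and Sdhb, the iron-sulfur subunit, at 133.2, 139.2 and 133.8 CPM. Of the membrane anchors, Sdhc stood at 75, 79.7 and 81.2 CPM and Sdhd at 59.8, 59.5 and 68.5 CPM in the same order. Every interval of the 4 genes included 0 in both comparisons.

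Complex III held genes on both sides. Uqcrb, a small subunit next to the ubiquinone site, stood at 272.9 CPM in colon 1, 211.9 CPM in colon 2 and 152.1 CPM in spleen, at 0.84 (0.58 to 1.11) and 0.48 (0.25 to 0.71). Uqcrc1, one of the core proteins on the matrix side, stood at 128.5, 153.2 and 97.9 CPM, at 0.39 (0.04 to 0.74) and 0.65 (0.36 to 0.94). Each was past 1.5-fold in a single colon library. Uqcrb overlaps an antisense gene and has 3 nearly identical pseudogenes in the annotation, so its count is less certain. Uqcrh, the hinge protein that docks cytochrome c1, was lower in colon, at 535.4 CPM in colon 1, 550.7 CPM in colon 2 and 638.6 CPM in spleen, with ratios of -0.25 (-0.40 to -0.10) and -0.21 (-0.33 to -0.10). Uqcrq stood at 167.6, 150.6 and 173.6 CPM, and Uqcrfs1, the Rieske iron-sulfur protein, at 80.6, 84.5 and 98.7 CPM.

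In complex IV, with totals of all UMIs, the 10 structural subunits were above spleen in colon 1 and the supercomplex factor Cox7a2l below it. In colon 1 all 10 subunits were above, from 0.10 to 0.58, and in colon 2 it was 8 of 10, from -0.33 to 0.23, beside 4791 and 4849 of all 9580 tested genes (50.01% and 50.6%). Their sum was 5357 CPM in colon 1, 4492 CPM in colon 2 and 4265 CPM in spleen, at 0.33 (0.28 to 0.38) and 0.07 (0.03 to 0.12). Totals without ribosomal protein genes shift these ratios down by 0.20 and 0.22, so that the colon 2 sum lies below spleen there and 7 of the 10 subunits were above spleen in colon 1 and 1, Cox8a, in colon 2 (beside 38.7% and 39.6% of all tested genes). Cox8a stood at 1007.8, 873.2 and 746.05 CPM and Cox6a1 at 669.5, 536.7 and 467.4 CPM in colon 1, colon 2 and spleen, and both had intervals above 0 in each comparison, though the colon 2 ratio of Cox6a1 was -0.018 with those totals. Cox4i1, the isoform of the regulatory subunit IV found in most tissues, was more even, at 746.1, 708.5 and 692.7 CPM. Cox5b, the zinc-binding subunit, stood at 364.6 CPM in colon 1, 266.6 CPM in colon 2 and 244.4 CPM in spleen, so that colon 2 lay close to spleen. Cox7b stood at 260.9, 186.9 and 234.9 CPM, with colon 2 the lowest.

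The isoforms of complex IV that are known from muscle, lung or testis were nearly absent. Cox4i2, Cox8b and Cox8c had no UMI in any cell, Cox6a2 had 1, Cox7b2 had 4, Cox7a1 had 15 and Cox6b2 had 22. Of their counterparts in most tissues, Cox6b1 stood at 489.1 CPM in colon 1, 402.1 CPM in colon 2 and 409.2 CPM in spleen, and Cox7a2 at 361.5, 298.2 and 269.1 CPM. The other rows below the minimum were Ndufa4l2 with 10 UMIs, Ndufaf6 with 21 and Atp5s with 28, and the lowest genes above it were Ndufaf1 with 53, Ndufaf2 with 79 and Ndufaf5 with 94.

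By the mean of both ratios, Cox7a2l showed the widest difference of the 61 well counted genes. It encodes a relative of the subunit Cox7a that joins complex III to complex IV in supercomplexes, and C57BL/6 mice are known to carry a shortened form of the protein. The gene lies on chromosome 17, 83501918 to 83517330, minus strand (GRCm38), overlaps no other annotated gene and has no nearly identical transcript elsewhere in the annotation. It stood at 355.9 CPM (323.6 to 390.5) in colon 1, 400.6 CPM (381.02 to 420.9) in colon 2 and 717.4 CPM (671.3 to 765.8) in spleen. Both colon libraries were far below spleen, by 2.02 and 1.79 times, at log2 -1.01 (-1.18 to -0.85) and -0.84 (-0.96 to -0.72). Over the 8 alternatives the ratio lay between -1.21 and -0.97 in colon 1 and between -1.06 and -0.79 in colon 2. Spleen held more ribosomal protein transcripts as well, and their part in this difference was not tested.

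In complex V, Atp5d, the delta subunit of the rotating central stalk, was higher in colon, at 423.7 CPM in colon 1, 509.9 CPM in colon 2 and 328.04 CPM in spleen, with ratios of 0.37 (0.18 to 0.56) and 0.64 (0.48 to 0.79); it overlaps the antisense gene Cbarp. The peripheral stalk, which holds the catalytic head still, summed over 4 genes to 1209 CPM in colon 1, 976.3 CPM in colon 2 and 1109.9 CPM in spleen. Atp5l, a small membrane subunit, stood at 511.5 CPM in colon 1, 501.4 CPM in colon 2 and 537.4 CPM in spleen, and both intervals included 0. Atp5sl, a gene of similar name known as an assembly factor of complex I, had 21, 71 and 33 UMIs, or 16.8, 18.1 and 26.3 CPM.

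The c subunit, the protein that forms the turning ring, is encoded by Atp5g1, Atp5g2 and Atp5g3, whose mature proteins are the same and whose targeting peptides differ. The ring as a whole differed little, at 1494 CPM in colon 1, 1374 CPM in colon 2 and 1334 CPM in spleen, while the genes that supplied it did. Atp5g2 (chromosome 15, 102662864 to 102672352, minus strand) stood at 537.8 CPM in colon 1, 544.1 CPM in colon 2 and 666.4 CPM in spleen, at -0.31 (-0.46 to -0.16) and -0.29 (-0.41 to -0.18). Atp5g3 (chromosome 2, 73908447 to 73911326, minus strand) stood at 739.7, 560.9 and 461.01 CPM, at 0.68 (0.53 to 0.83) and 0.28 (0.15 to 0.42). Atp5g1 stood at 216.2, 268.9 and 206.2 CPM, at 0.07 (-0.18 to 0.32) and 0.38 (0.19 to 0.58).

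As shares of the UMIs of the 3 genes, which do not depend on the scaling of the library, Atp5g2 supplied 36% (33.8 to 38.2, exact Clopper-Pearson interval) in colon 1, 39.6% (38.3 to 40.9) in colon 2 and 49.97% (47.5 to 52.4) in spleen. Atp5g3 supplied 49.5% (47.2 to 51.8) in colon 1, 40.8% (39.5 to 42.2) in colon 2 and 34.6% (32.3 to 36.9) in spleen. Both colon libraries thus held a smaller part from Atp5g2 and a larger part from Atp5g3 than spleen, and they differed from each other too. In the annotation, 2 pseudogenes are nearly identical to the end of Atp5g2, 7 genes hold a stretch nearly identical to Atp5g1 and none does for Atp5g3.

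**Figure D3:**
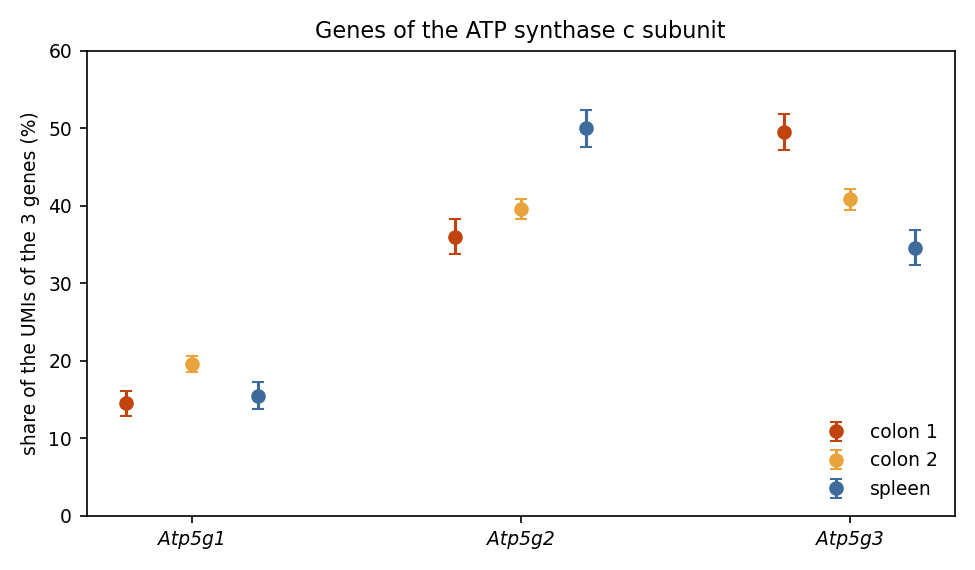
Points are the share of the UMIs of Atp5g1, Atp5g2 and Atp5g3 that each gene supplied in colon 1, colon 2 and spleen, with exact 95% binomial intervals. Atp5g2 is lowest in colon 1 and highest in spleen, and Atp5g3 the reverse.

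The promoters printed next are those of the well counted genes past 1.5-fold in both colon libraries (Cox7a2l and Ndufa6) and of the c subunit pair whose shares differed (Atp5g2 and Atp5g3), since they show whether these genes share one of the motifs known from genes of respiration. Each is the 250 bases before the gene start from RefSeq (GRCm38.p6), 5′ to 3′ on the minus strand, at chr17:83514334-83514583 for Cox7a2l, chr15:82354292-82354541 for Ndufa6, chr15:102671048-102671297 for Atp5g2 and chr2:73911327-73911576 for Atp5g3. The GENCODE spans of Cox7a2l and Atp5g2 reach up to 83517330 and 102672352, so their windows lie inside the genes as annotated there. The Ndufa6 window overlaps its GENCODE span in part. Bases before the GENCODE starts of Cox7a2l and Atp5g2 were not searched. Capitals mark motif matches on either strand.
Cox7a2l: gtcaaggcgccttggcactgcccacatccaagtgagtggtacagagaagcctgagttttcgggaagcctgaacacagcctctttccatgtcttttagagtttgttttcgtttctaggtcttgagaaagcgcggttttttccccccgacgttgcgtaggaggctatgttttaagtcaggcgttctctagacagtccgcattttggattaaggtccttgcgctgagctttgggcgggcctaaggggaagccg
Ndufa6: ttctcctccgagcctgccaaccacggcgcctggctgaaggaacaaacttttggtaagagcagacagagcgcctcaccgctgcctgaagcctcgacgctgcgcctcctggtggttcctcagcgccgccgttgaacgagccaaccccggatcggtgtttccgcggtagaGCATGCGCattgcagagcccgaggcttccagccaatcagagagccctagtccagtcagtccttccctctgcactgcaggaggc
Atp5g2: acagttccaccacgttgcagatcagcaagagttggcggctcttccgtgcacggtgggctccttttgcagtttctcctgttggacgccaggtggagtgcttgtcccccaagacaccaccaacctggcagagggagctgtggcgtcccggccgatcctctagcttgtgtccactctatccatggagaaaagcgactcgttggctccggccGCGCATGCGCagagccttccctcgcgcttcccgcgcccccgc
Atp5g3: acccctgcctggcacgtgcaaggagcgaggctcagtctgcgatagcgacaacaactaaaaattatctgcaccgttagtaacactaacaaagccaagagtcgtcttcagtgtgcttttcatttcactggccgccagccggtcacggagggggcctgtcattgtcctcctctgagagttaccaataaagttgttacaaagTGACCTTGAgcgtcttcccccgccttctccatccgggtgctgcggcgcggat

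The motifs searched, on both strands, were GCATGCGC (the core of the NRF1 motif), CCGGAAGT (bound by ETS factors such as GABPA), TCAAGGTCA (estrogen-related receptors) and AAGATGGCG (YY1). In these RefSeq windows Ndufa6 held 1 NRF1 core, Atp5g2 held 1 palindromic NRF1 core that reads on both strands, Atp5g3 held 1 motif of estrogen-related receptors and Cox7a2l held none of the 4. The windows of Uqcrc1 and Atp5d, not printed, held none of the 4 either, and those of Atp5d also lie inside its GENCODE span. Promoters were matched for 71 of the 82 genes, and the NRF1 core was found in 9 of them (12.7%), beside 5.55% of the promoters of all tested genes and 2.56% of all 27025 promoters. The ETS motif was found in 3 (4.23%), beside 7.68% of tested genes and 3.23% of all promoters. YY1 matches were found in 2 (2.82%, beside 1.71% and 0.71%), and the motif of estrogen-related receptors in 1 (1.41%, beside 0.33% and 0.42%).

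The colon libraries differed from each other in the same direction for most genes. Of the 82 genes, 59 were lower in colon 2 than in colon 1, including 35 of 43 in complex I and all 10 structural subunits of complex IV, and the median ratio of colon 2 over colon 1 was -0.15, beside 0.06 for all tested genes, of which 4310 of 9580 were lower in colon 2. Transcript length, known for 80 of the genes, moved with it. Of the 25 genes with a median transcript under 600 bases, 22 were lower in colon 2 (median -0.21), of the 24 genes from 600 to under 1000 bases 21 (median -0.22), and of the 31 longer genes 16 (median -0.01). Among all tested genes the median was -0.22 under 600 bases and -0.086 from 600 to under 1000 bases. It was 0.09 among the 8136 genes of at least 1000 bases, of which 3444 were lower in colon 2. Their middle bin thus lay between the others, while for the 80 genes the short and middle bins were nearly equal. The rank correlation (Spearman) of length with this ratio was 0.26 for the 80 genes and 0.10 for all tested genes. The libraries also differed in reads per UMI, at a median of 61.6 in colon 1, 26.7 in colon 2 and 58.7 in spleen. The part of length and depth in the difference was not tested.

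Of the 14 measured genes of glycolysis, 9 were past 1.5-fold above spleen in both colon libraries (64.3%, beside 17.3% of all tested genes) and 0 below. The median ratio of the 14 was 0.81 in colon 1 and 0.91 in colon 2, and the lowest was -0.11 and -0.062. Pkm, the pyruvate kinase, stood at 575.3 CPM in colon 1, 776.4 CPM in colon 2 and 285.04 CPM in spleen, and Gapdh at 766.01, 783.1 and 416.4 CPM. Aldoa, the aldolase, stood at 229.01, 269.9 and 89.2 CPM, and Hk2, a hexokinase, at 22.3, 22.7 and 4.78 CPM in the same order.

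The other mitochondrial groups held few genes past 1.5-fold above spleen. Of 76 mitochondrial ribosomal protein genes, 2 were that much higher (2.63%, beside 17.3% of all tested genes) and 11 lower (14.5%, beside 13.3%), with a median of -0.19 and -0.32; Mrpl9 stood at 264.9 CPM in colon 1, 198.6 CPM in colon 2 and 367.9 CPM in spleen. Of 34 assembly factors outside the name pattern, 2 were higher (5.88%) and 7 lower (20.6%), with a median of -0.28 and -0.38. Sdhaf1, which helps to load iron-sulfur clusters into Sdhb, was among the lower ones, at 21.5 CPM in colon 1, 16.3 CPM in colon 2 and 97.9 CPM in spleen, while Sdhb itself was even. Of 17 citrate cycle genes 0 were higher and 2 lower (11.8%), and of 13 fatty acid oxidation genes 1 (7.69%) and 0. Of 22 import genes 1 was higher (4.55%) and 3 lower (13.6%), and of 15 carriers and chaperones 0 and 0. Among all tested genes the shares were 17.3% and 13.3%.

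Among the electron carriers and their makers, 2 of 13 genes were higher (15.4%, beside 17.3% of all tested genes) and 0 lower (beside 13.3%). Cycs, the cytochrome c gene, stood at 271.3 CPM in colon 1, 280.6 CPM in colon 2 and 261.9 CPM in spleen, at 0.05 (-0.17 to 0.27) and 0.10 (-0.08 to 0.28). Coq10b, which encodes a ubiquinone-binding protein, stood at 193.9, 159.1 and 6.37 CPM, at 4.93 (3.93 to 6.16) and 4.64 (3.65 to 5.86). Of 8 genes of peroxide defence 2 were higher (25%) and 0 lower, and Sod2, the superoxide dismutase of the matrix, stood at 180.3 CPM in colon 1, 129.2 CPM in colon 2 and 65.3 CPM in spleen. Of 15 regulators of mitochondrial genes 1 was higher (6.67%) and 3 lower (20%). Gabpb1, a partner of the ETS factor GABPA, stood at 121.3, 171.1 and 30.3 CPM, and Myc at 42.3, 71.2 and 117.04 CPM. Of 84 cytosolic ribosomal protein genes, 0 were higher and 51 lower (60.7%) in both.

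**Figure D4:**
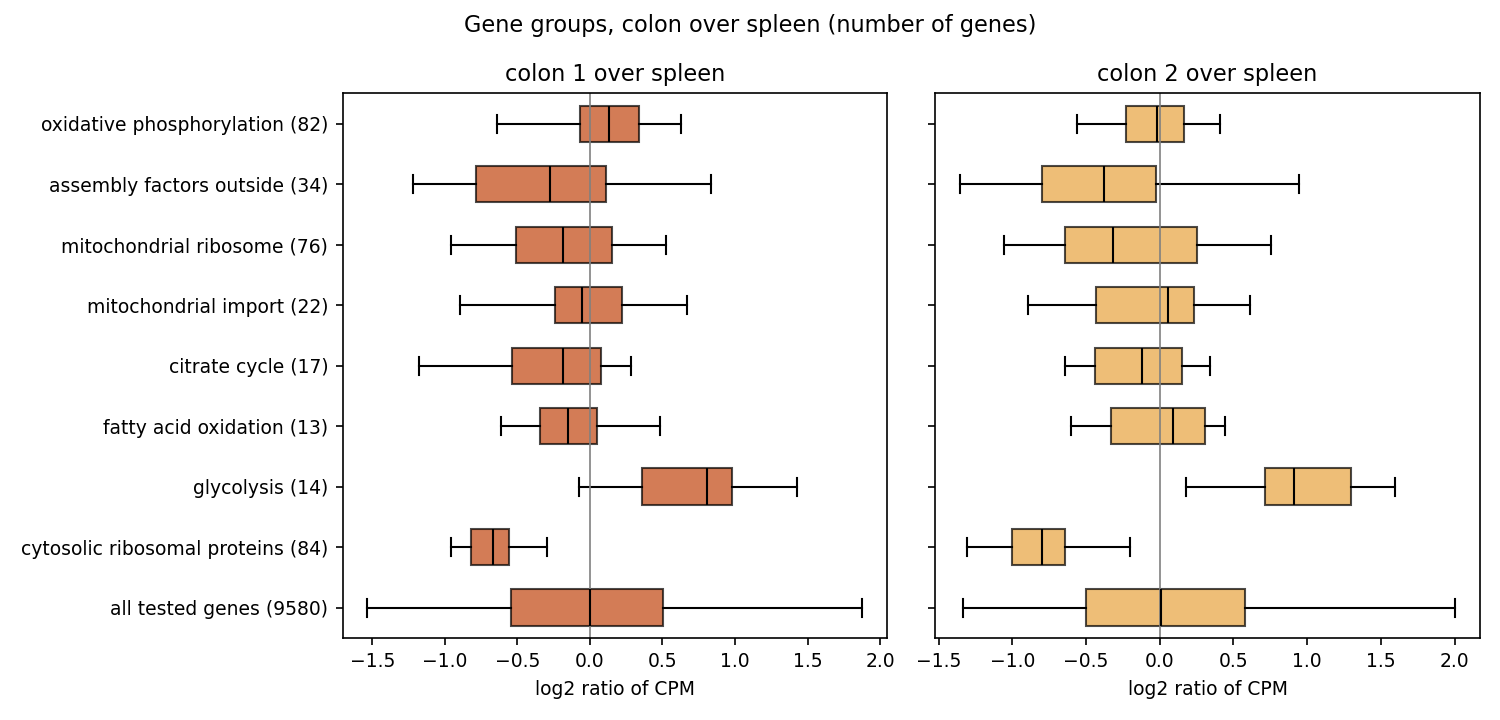
Boxes show the log2 ratio of CPM in colon 1 over spleen (left) and colon 2 over spleen (right) for the genes of each group, from the lower to the upper quartile with the median, and whiskers from the 5th to the 95th percentile. The 82 oxidative phosphorylation genes center near 0 with a narrow spread, glycolysis lies above 0 (median 0.81 and 0.91) and cytosolic ribosomal proteins below (median -0.67 and -0.80).

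Within the colon libraries, the level differed between kinds of cells. Cells were clustered on all genes except the 82, which gave 7 clusters that are called here by their leading genes. Cells led by Aurkb, Ccnb2 and Ccna2, genes of mitosis, held the most oxidative phosphorylation UMIs, at 24060 CPM in 15 colon 1 cells and 22701 CPM in 27 colon 2 cells, against 17775 and 16025 CPM in the other cells of each library. The difference was 0.44 (0.37 to 0.50) and 0.50 (0.45 to 0.55), and glycolysis genes were higher in the same cells, by 0.64 and 0.73. These cells also held more UMIs, with a median of 5995 in colon 1 and 5269 in colon 2, and doublets were not removed. Cells led by Hspa1a, Hspa1b and Fosb, genes of heat shock and early response, held the least, at 16025 CPM in 62 colon 1 cells and 14891 CPM in 9.82% of the colon 2 cells, at -0.20 (-0.27 to -0.13) and -0.14 (-0.18 to -0.09) against the other cells. The remaining colon clusters lay between, from 17277 to 18680 CPM in colon 1 and from 15037 to 17131 CPM in colon 2, leaving out the cluster that most spleen cells formed.

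That last cluster, led by Igfbp4 and Nrn1, held 99.03% of the spleen cells, 10 colon 1 cells and 17 colon 2 cells. Cox7a2l stood there at 759.2 CPM in the colon 1 cells (12 UMIs), 666.3 CPM in the colon 2 cells (24 UMIs) and 727.97 CPM in the spleen cells. The few colon cells in this cluster thus stood close to spleen, with wide intervals, and above the other cells of their own library by 1.11 (0.15 to 1.93) and 0.74 (0.10 to 1.32). In each of the other 6 clusters both colon libraries were below the spleen library with an interval that leaves out 0, from 281.1 to 469.9 CPM in colon 1 and from 348.6 to 468.9 CPM in colon 2. Cells led by Ccr7, Hey1 and Fam43a were the highest of these, at 469.9 and 468.9 CPM. Ribosomal protein transcripts were also higher in these 2 clusters. They summed to 249541 CPM in the colon 1 cells of the Igfbp4 cluster and 212749 CPM in the colon 2 cells, against 170920 and 159229 CPM in the other cells of those libraries, and to 205196 and 193470 CPM in the Ccr7 cells. The other clusters did not follow one order. Cox7a2l was lowest in the cells led by Aurkb, at 281.1 CPM in colon 1 and 348.6 CPM in colon 2, where ribosomal protein transcripts summed to 171124 and 161007 CPM. Ribosomal protein transcripts were lowest in the cells led by Ppp1r3b, at 162338 and 148461 CPM, where Cox7a2l stood at 328.8 and 407.5 CPM. Their part in the Cox7a2l levels was not tested. The c subunit genes did not give the same picture in so few cells, since Atp5g2 supplied 54.2% (32.8 to 74.4) in the 10 colon 1 cells and 20.9% (10.04 to 36.04) in the 17 colon 2 cells of the Igfbp4 cluster. In the larger clusters Atp5g2 supplied 41.9% (35.3 to 48.8) in the colon 1 Ccr7 cells and 48.3% (44.2 to 52.4) in the colon 2 Ccr7 cells. In the cells led by Ppp1r3b, Angptl2 and Csf1 the shares were 31.99% (28.8 to 35.4) and 37.2% (35.2 to 39.3).

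**Figure D5:**
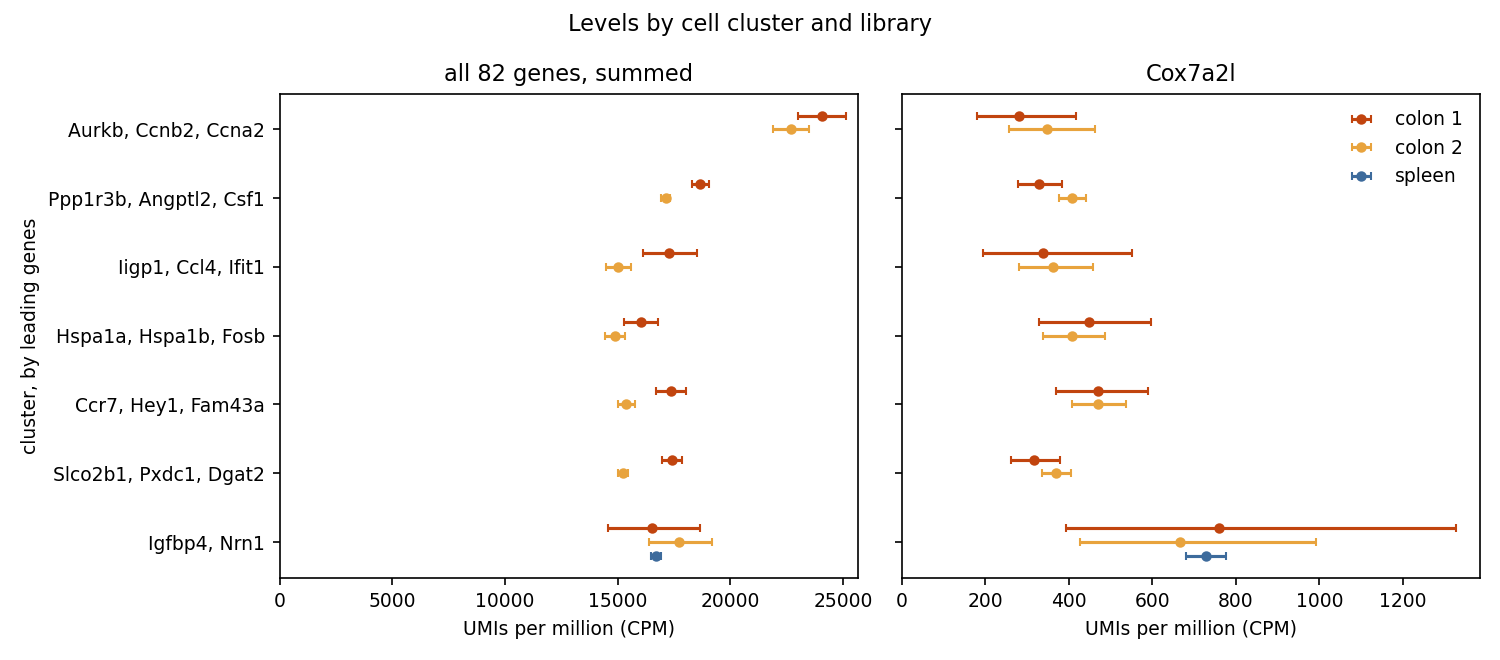
Points are the CPM of the 82 genes summed (left) and of Cox7a2l (right) in each cluster and library with at least 10 cells, with 95% Poisson intervals of counting error; clusters are named by leading genes. The Aurkb cluster is highest on the left (24060 CPM in colon 1, 22701 CPM in colon 2), and on the right the Igfbp4 cluster is high in all 3 libraries.

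Per cell, the distributions overlapped widely. With every cell thinned to 1000 UMIs (9 shallower cells of colon 1, 28 of colon 2 and 4 of spleen were dropped), the median cell held 17 oxidative phosphorylation UMIs in colon 1, 15 in colon 2 and 16 in spleen. The middle 90% of cells lay between 8 and 28 in colon 1, between 7 and 25 in colon 2 and between 8.6 and 26 in spleen. Unthinned, the median share per cell was 1.72%, 1.55% and 1.61%. The variance over cells came to 2.15, 1.87 and 1.84 times the mean in colon 1, colon 2 and spleen, against 0.98 from thinning alone, so cells of 1 library differed from each other beyond sampling.

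Depth and dissociation genes moved with that spread. In the third of cells with the most UMIs the 82 genes stood at 19711 CPM in colon 1, 17335 CPM in colon 2 and 17548 CPM in spleen, and in the third with the fewest at 16007, 14944 and 15892 CPM. In the third of cells with the highest share of dissociation and heat shock genes they stood at 16445 CPM in colon 1, 14812 CPM in colon 2 and 16287 CPM in spleen, and in the third with the lowest at 19349, 17026 and 16663 CPM. This difference was wide in both colon libraries and small in spleen. Dissociation genes summed to 7266 CPM in colon 1, 7877 CPM in colon 2 and 3933 CPM in spleen. Without the third of cells highest in them the summed ratio was 0.16 in colon 1 and -0.01 in colon 2, and the part of dissociation in the comparison was otherwise not tested.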

How the data were processed

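Per the labels' protocols, single cells were captured by inDrops with oligo-dT primers and sequenced on a NextSeq500. Per the submitters' processing notes, TopHat2, SAMtools and the mm10 build were used, without versions; no source used here gives the annotation, UMI collapsing or strand setting. The authors deposited whole-number counts of UMIs per gene and cell, in which 0 columns were left unused.

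Colon 1 held 619 cells, colon 2 1772 and spleen 617. Counts were summed per library and scaled to CPM, with exact Poisson intervals for CPM and exact conditional binomial intervals (95%) for ratios, which take UMIs as independent. A count of 0 was set to 3. The ratio and its interval were tested on simulated Poisson counts, which cannot show how the interval holds where cells differ beyond sampling. Genes were named by a rule that takes, per complex, the most counted, the highest and the lowest genes, those past 1.5-fold in both colon libraries or between them, and paralogs; Ndufb8, Ndufc2, Ndufa11 and Ndufab1 were added after their values were seen. The genes and lists were chosen with earlier results of these data known. Clustering used scanpy 1.11.5 (2000 variable genes, 20 components, 15 neighbours, Leiden resolution 0.8, igraph 0.11.9) without the 82 genes. Well counted genes were those with at least 491 UMIs, the lower quartile of the 82. Alternatives without cells holding 2 UMIs of other cell types dropped 223, 691 and 192 cells of colon 1, colon 2 and spleen, and those of dividing cell genes 211, 671 and 148; other alternatives changed scaling, minimum, fold and gene set. TMM factors came from edgeR 4.0.16. Positions, lengths and overlaps come from GENCODE vM21 (81 of 82 genes matched) and nearly identical stretches (at least 95% over 100 bases of the last 500) from BLAST 2.17.0. Antisense genes overlap 27 of the 82.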

Additional observations from a re-analysis of the deposited data

How the results depend on the processing

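No paired analysis was possible because spleen has a single library and no result comes from a test. The summed log2 ratio of 0.12 in colon 1 was 0.15 with TMM factors and for structural subunits alone, 0.16 with median of ratios factors and without cells high in dissociation genes, 0.085 as a mean over cells, 0.088 after thinning, 0.089 without cells holding 2 UMIs of dividing cell genes, 0.071 without cells holding 2 UMIs of other cell types and -0.078 with totals without ribosomal protein genes. For the colon 2 ratio of -0.05 the values were -0.015 with TMM factors, 0.0042 with median of ratios factors, -0.26 without ribosomal protein genes, -0.010 without cells high in dissociation genes and -0.016 for structural subunits alone. The mean of both ratios, 0.04, ranged from -0.045 to 0.12 when a colon library was left out, so its direction rests on colon 1. Without ribosomal protein genes in the totals, complexes I and V stood at -0.14 and -0.080 in colon 1. The causes of these moves were not tested beyond what each setting leaves out.

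The count of 1 higher gene of 82, beside 17.3% of all tested genes, became 3 after thinning (18.6%). It was also 3 without cells holding 2 UMIs of dividing cell genes (18.3%), and 4 without cells high in dissociation genes (19.3%). With no minimum it was 2 of 89 (12.8%), and at 2-fold 0 (10.4%). Without genes that have a nearly identical annotated transcript, an alternative chosen after seeing the data, it was 0 of 60. The 3 lower genes, beside 13.3%, became 5 without cells holding 2 UMIs of genes of other cell types (14.1%). They became 5 with no minimum (16.8%), 1 of 74 for structural subunits alone and 0 at 2-fold (5.40%). A single colon library gave 3 to 7 higher and 5 to 6 lower genes, with 7 and 6 in colon 1 (beside 22.4% and 23.03% of all tested genes) and 3 and 5 in colon 2 (beside 24.7% and 21.7%). Ndufaf1 stood at 0.44 in colon 1 without cells holding 2 UMIs of dividing cell genes. Over the 34 named genes, 50 alternative values lay outside the counting interval of their main value and 54 had the sign opposite to it, 14 of them with totals without ribosomal protein genes. Leaving out genes with copies elsewhere in the genome was not run. With 1 spleen library, the spread between animals is unknown.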
